A study of Saccharomyces cerevisiae with 18 samples.

Results

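Wild-type diploid budding yeast, Saccharomyces cerevisiae strain SLS045 of the S288c background, was compared between growth on galactose and growth on glucose. The assay was TIF-Seq, in which the cap site and the poly(A) site of a single RNA are sequenced together, so that whole transcripts are counted. Galactose cultures grew in YPGal and glucose cultures in YPAD, both with 1% of the sugar, 1% yeast extract and 2% peptone, and both were taken in mid-log growth at an optical density of 1. The labels call the strain WT in both media. Among the medium components given with amounts, only the sugar differs between the groups. The names YPGal and YPAD do not settle whether another component differed as well. The galactose column holds 6 standard libraries from 4 cultures and 3 preparations, and the glucose column 6 standard libraries from 2 cultures and 3 preparations; the third preparation of each medium had capped Bacillus subtilis spike-in RNA added, which is not used here.

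In the deposited table the libraries of a medium are added into 1 column of read counts. Each medium therefore has 1 value per gene, the spread between cultures is unknown, and nothing was tested for a p-value. Intervals are 95% and cover counting error only; PCR copies, if present, make them too narrow. A read counted for a gene when its molecule spanned that gene's whole coding sequence in build R64, on the same strand, and no other coding sequence. All 3768 of 6002 protein-coding genes with at least 20 such reads over both media are described. A further 1285 genes had 1 to 19 reads and 949 had none. At the edge of the rule, 24 genes had exactly 20 reads and 36 had 19.

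The galactose column held 6425269 reads and the glucose column 6290819. Of these, 5769844 (89.8%) in galactose and 5779509 (91.9%) in glucose spanned a single coding sequence. The share of genes that reached 20 reads was 61.4% for coding sequences up to 500 nt, 85.4% for 501 to 1000 nt and 23.4% for those above 2000 nt, so long genes are thinly covered and levels are not compared between genes. Counts are relative to the column: more RNA of a gene and less RNA of all others per cell cannot be told apart.

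Yeast turns galactose into glucose 1-phosphate through the Leloir pathway. Its genes are switched on by the activator Gal4, which the repressor Gal80 holds inactive until the sensor Gal3 binds galactose. Glucose is fermented by preference, and while it is present the genes of respiration, of other carbon sources and of galactose use are repressed. Amino acid synthesis genes answer to another activator, Gcn4, whose own protein level is set largely at translation.

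The sequences that these activators recognise are shown first, because the genes they precede include those with the largest differences. Each was read from the R64 genome within 500 bases before the start codon and is written in the direction of the gene. Capitals mark the letters of the Gal4 motif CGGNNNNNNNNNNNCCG, which reads alike on both strands, and lower case the 11 bases between them.
GAL1, chrII:278568-278584, plus strand: CGGattagaagccgCCG
GAL1, chrII:278587-278603, plus strand: CGGgcgacagccctCCG
GAL1, chrII:278605-278621, plus strand: CGGaagactctcctCCG
GAL7, chrII:275703-275719, minus strand: CGGacaactgttgaCCG
GAL2, chrXII:289796-289812, plus strand: CGGcggtctttcgtCCG
GAL2, chrXII:289815-289831, plus strand: CGGagatatctgcgCCG
GAL2, chrXII:289879-289895, plus strand: CGGggcggatcactCCG
GAL2, chrXII:289884-289900, plus strand: CGGatcactccgaaCCG
GAL3, chrIV:463146-463162, plus strand: CGGtccactgtgtgCCG
GAL80, chrXIII:171422-171438, plus strand: CGGcgcactctcgcCCG
GCY1, chrXV:550745-550761, plus strand: CGGggcagactattCCG
MTH1, chrIV:1016155-1016171, minus strand: CGGggaaatggagtCCG
PCL10, chrVII:255431-255447, plus strand: CGGagtatattgcaCCG

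The same 3 matches stand before GAL1 and, on the other strand, before its divergent neighbour GAL10. The last pair of matches before GAL2 overlap each other, and the letters CGGANNA of the Rgt1 motif can overlap this motif as well. Of all 6002 genes, 179 (2.98%) had a Gal4 match in this window.

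The Gcn4 motif TGACTC was searched on both strands and stood before 759 (12.6%) of all genes. It is shown for arginine, histidine and lysine genes with large differences, in capitals with 10 flanking bases on each side; further matches before ARG3, HIS3, HIS4 and LYS1 are not shown. GAGTCA is the same motif on the opposite strand.
ARG1, chrXV:218856-218881, plus strand: gattttttagTGACTCatgtcgcatt
ARG1, chrXV:218927-218952, plus strand: ccgtatggaaGAGTCAtttaaaggca
ARG3, chrX:268475-268500, plus strand: ggtcacgtcgTGACTCatatgctttc
ARG4, chrVIII:141566-141591, minus strand: agtagatgaaTGACTCactttttgga
HIS3, chrXV:721814-721839, plus strand: acctagcggaTGACTCtttttttttc
HIS4, chrIII:68517-68542, minus strand: ccatgcacagTGACTCacgttttttt
LYS1, chrIX:420970-420995, minus strand: ctaagtcgatGAGTCAaaaaagactc

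A match is a description of these letters; binding was not measured.

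The 4 marker genes of the media lay far apart between the columns. GAL1, galactokinase, had 24292 reads in galactose and none in glucose. That is 5823-fold higher when 3 reads stand in for the 0, as in every fold given against a count of 0. Such a fold is not a lower limit, and the interval for GAL1 began at 4735. GAL2, the galactose permease, had 14251 reads in galactose and 1 in glucose, a ratio of 10248 with limits of 1839 and 404797. HXT3, a low-affinity glucose transporter, had 1 read in galactose and 1405 in glucose, 1954-fold lower (350.1 to 77227). ARG1, argininosuccinate synthetase, had 37 reads in galactose and 3237 in glucose, 121.7-fold lower (88.1 to 173).

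A gene is said to have risen or fallen in galactose when its ratio was at least 2-fold after trimmed-mean scaling and its interval excluded 1. By this rule 649 of the 3768 measured genes (17.2%) changed: 407 (10.8%) rose and 242 (6.42%) fell. The median log2 ratio of galactose over glucose was 0.02, and 90% of genes lay between -1.11 and 1.75. Differences of 8-fold or more were found for 64 genes that rose and 18 that fell. The 407 genes that rose held 541817 reads (9.39%) in galactose and 96988 (1.68%) in glucose. The 242 that fell held 908730 reads (15.7%) in galactose and 1710220 (29.6%) in glucose. Among the 203 genes with at least 10000 reads, falls outnumbered rises: 17 rose and 28 fell, with a median log2 ratio of -0.52.

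The scaling and the unit counted matter for small differences. Scaling by total reads moves every log2 ratio up by 0.48 and gives 926 genes (24.6%) higher and 89 (2.36%) lower, so that 91.2% of calls are higher, against 62.7% under trimmed-mean scaling. With each pair of ends counted once in place of its reads, 218 genes were higher and 71 lower, and 201 and 68 of these were among the calls given here. Medians of gene groups are to be read against the all-gene median of 0.02. A gene with no read in glucose passed the minimum of 20 reads through galactose alone and had to differ. This holds for 16 genes that rose, and in the opposite direction for HXT1 and MIG3. A gene with only 1 or 2 reads in glucose also had to differ once it reached the minimum. Examples are MFA1, MF(ALPHA)1, GND2, MET2 and RPN2, and in the opposite direction MAE1.

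**Figure D1:**
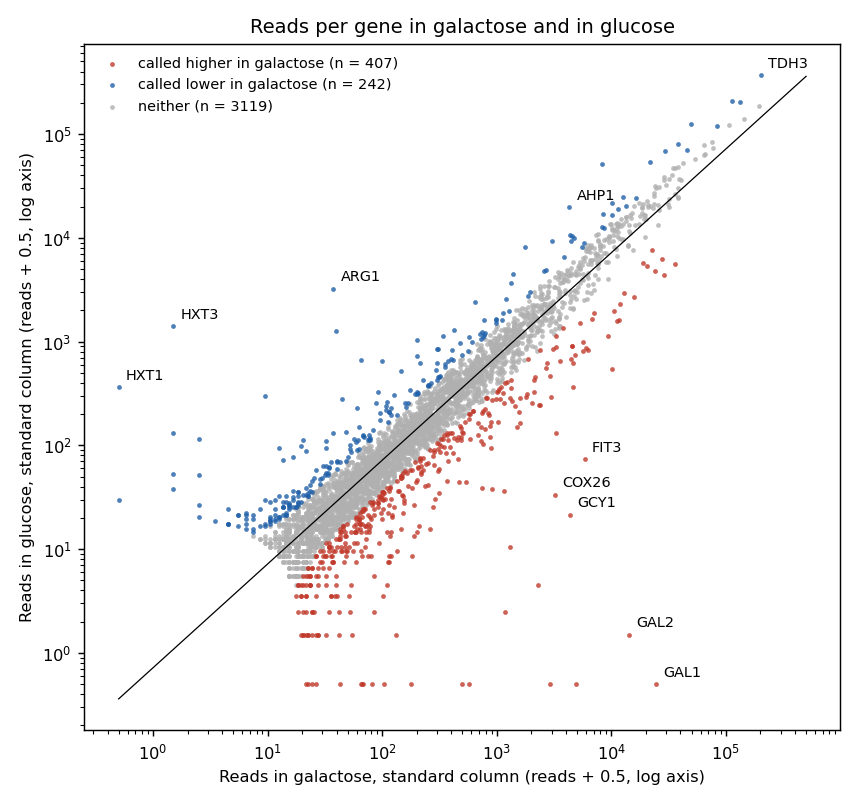
Reads per gene in galactose (x axis) and glucose (y axis), each plus 0.5 and on a log axis, for the 3768 measured genes. Red points are the 407 genes that rose in galactose, blue points the 242 that fell, grey points the rest, and the line marks equal levels after trimmed-mean scaling. GAL1 and GAL2 lie at the lower right, HXT3, HXT1 and ARG1 at the upper left, and most genes lie along the line.

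The galactose pathway moved almost as a block: 7 of its 8 measured members rose and none fell, with a median log2 ratio of 10.22. Together the 8 members held 49134 reads (0.85%) in galactose and 288 in glucose. GAL10, the epimerase, had 4863 reads in galactose and none in glucose, 1166-fold higher against 3 reads. GAL7, the uridylyltransferase, had 2922 and none, 700.4-fold higher against 3 reads. The regulators differed less. GAL3, the sensor, had 1177 reads in galactose and 2 in glucose, a ratio of 423 (117 to 3498), and GAL80, the repressor, had 310 and 58, a ratio of 3.84 (2.90 to 5.18). PGM2, the phosphoglucomutase that joins the pathway to glycolysis, had 1162 and 36 reads (23.2-fold, 16.7 to 33.3), while its paralog PGM1 had 157 and 191, a log2 ratio of -0.76 that did not reach 2-fold. GAL4 itself had 8 reads in galactose and none in glucose, too few to be measured.

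Outside the pathway, a Gal4 match stood before 18 of the 400 genes that rose (4.50%) and 11 of the 242 that fell (4.55%), shares that were nearly equal, and before 108 of all 3760 measured genes (2.87%). GCY1, a glycerol dehydrogenase, had 4358 reads in galactose and 21 in glucose, a ratio of 149 (97.5 to 241). In libraries made to favour long molecules GCY1 had 1738 and 216 reads, a log2 ratio of 2.48 against 7.19 here. MTH1, a corepressor of hexose transporter genes, had 740 and 38 reads (14.0-fold, 10.1 to 19.9), and PCL10, a cyclin of the Pho85 kinase, had 584 and 115 (3.65-fold, 2.99 to 4.5). SDD1 had 493 reads in galactose and none in glucose. MBR1 and its paralog ISF1, genes linked to respiratory growth, had 132 and 110 reads in galactose, against 1 and 4 in glucose. The matched genes that fell included MIG2, HXT3, LYS1 and AQR1.

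Most of the measured hexose transporters fell. Of the 18 annotated hexose transporter and sensor genes 5 were measured, and 4 of these fell, with a median log2 ratio of -5.61. HXT1, a low-affinity transporter, had no read in galactose and 362 in glucose, at least 167.8-fold lower. HXT2 had 65 reads in galactose and 664 in glucose (14.2-fold lower, 11 to 18.6), and HXT4 had 1 and 52 (72.3-fold lower, 12.4 to 2910). HXT7, a high-affinity transporter, rose, with 750 reads in galactose and 103 in glucose (5.24-fold, 4.26 to 6.50), but it is nearly identical to HXT6 and reads may be shared between them.

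Among 19 measured genes of glucose sensing and repression, 4 fell, 1 rose and 14 did neither, with a median log2 ratio of 0.16; under total scaling 3 fell and 5 rose. MIG2 and MIG3, repressors, were among those that fell: MIG2 had 9 reads in galactose and 297 in glucose (45.9-fold lower, 23.8 to 101), and MIG3 had none and 29. SIP1, a subunit of the Snf1 kinase, had 4 reads in galactose and 17 in glucose and fell, yet it had 149 and 143 in libraries made to favour long molecules. GLC7, the catalytic subunit of a protein phosphatase that opposes Snf1, had 32 and 54 reads (2.35-fold lower, 1.49 to 3.76) and did not reach 2-fold under total scaling. RDS2, a regulator of gluconeogenesis genes, was the one that rose, with 41 and 12 reads and a log2 ratio of 1.26. SNF1, the kinase that lifts glucose repression, had 31 and 13 reads and did not reach 2-fold. HXK2, the hexokinase that acts in repression, had 1024 and 747 reads, a log2 ratio of -0.02. MIG1, HAP4, CAT8 and ADR1, the repressor and activators best known for this switch, each had under 20 reads and were not measured.

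Genes of glycolysis and ethanol fermentation fell for the most part. Of 22 measured genes, 13 fell, 3 rose and 6 did neither, with a median log2 ratio of -1.43, and -0.95 with total scaling, where 11 still fell. Together they held 380052 reads in galactose (6.59%) and 802845 in glucose (13.9%). Among the steps from triose onward, GPM1, phosphoglycerate mutase, had 49768 reads in galactose and 125706 in glucose (3.51-fold lower, 3.48 to 3.55). PGK1, phosphoglycerate kinase, had 1335 and 3628 (3.78-fold lower, 3.55 to 4.03). CDC19, the main pyruvate kinase, had 4351 and 10532 reads, a log2 ratio of -1.75. PDC1, pyruvate decarboxylase, and ADH1, the fermentative alcohol dehydrogenase, had log2 ratios of -1.68 and -1.69. TDH2, glyceraldehyde 3-phosphate dehydrogenase, had the lowest log2 ratio of the group at -3.12, though its near-identical copy TDH3 makes the split between them uncertain. The 3 genes that rose were HXK1 (908 and 37 reads), GLK1 (885 and 168) and PYK2 (136 and 36), the kinases known to be repressed by glucose.

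Respiratory genes rose almost without exception. Of 38 measured subunits of the respiratory chain and ATP synthase 37 rose and none fell, under trimmed-mean and total scaling alike, with a median log2 ratio of 2.00. The group held 230673 reads in galactose (4.00%) and 43706 in glucose (0.76%). INH1, the inhibitor of the ATP synthase, had the highest ratio, with 4644 reads in galactose and 361 in glucose (9.25-fold, 8.31 to 10.3). In complex III, RIP1, the Rieske iron-sulfur protein, had 1510 and 150 reads (7.24-fold, 6.12 to 8.62), and QCR8 had 2394 and 244 (7.06-fold, 6.18 to 8.08). In the ATP synthase, TIM11 had 36237 and 5536 reads (4.71-fold, 4.58 to 4.84), and ATP5 had 20313 and 5305 (2.75-fold, 2.67 to 2.84). The exception was COX5B, the form of cytochrome oxidase subunit 5 made at low oxygen, with 92 and 67 reads and a log2 ratio of -0.02, beside 1.68 for its aerobic partner COX5A. CYC7, the minor cytochrome c, rose like CYC1, with log2 ratios of 2.75 and 2.44.

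COX26, a small protein of the oxidase, was outside that group and had a higher ratio than any of the 38, with 3199 reads in galactose and 33 in glucose (69.7-fold, 49.5 to 101). Of 24 assembly factors 7 rose and none fell, with a median log2 ratio of 0.81 and with 18 higher under total scaling. COX20, a chaperone of subunit 2, led them with 1297 and 283 reads (3.30-fold, 2.90 to 3.76). Mitochondrial ribosomal proteins had 18 of 70 members higher and none lower, with a median of 0.75 and with 54 higher under total scaling. The protein import machinery stayed near the all-gene value: of 36 genes none rose or fell, with a median of 0.23, and 7 rose under total scaling.

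The tricarboxylic acid cycle rose with the respiratory chain. Of 15 measured genes 10 rose, and the median log2 ratio was 1.54. SDH2, the iron-sulfur subunit of succinate dehydrogenase, had 276 reads in galactose and 25 in glucose (7.94-fold, 5.27 to 12.5), and SDH4, its membrane anchor, had 9261 and 1133 (5.88-fold, 5.53 to 6.26). CIT1, mitochondrial citrate synthase, had 876 and 121 reads (5.21-fold, 4.30 to 6.35), and MDH1, malate dehydrogenase, had 11135 and 1573 (5.09-fold, 4.83 to 5.37). The letters CCAAT, core of the Hap complex motif, stood before 35 of the 38 respiratory genes, and before 62.3% of all measured genes.

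Carriers of the mitochondrial and plasma membranes split by member. Of 17 measured, 6 rose and 5 fell; their median log2 ratio was -0.39, and 0.09 under total scaling. POR1, the pore of the outer membrane, had 28746 reads in galactose and 4357 in glucose (4.74-fold, 4.60 to 4.90). PET9, the main ADP/ATP carrier, had 5595 and 818 (4.92-fold, 4.57 to 5.30), whereas AAC3, the carrier made at low oxygen, had 60 and 226 (5.24-fold lower, 3.92 to 7.08). MPC3, the pyruvate carrier subunit of respiring cells, had 42 reads in galactose and none in glucose, at least 10.1-fold higher, while MPC2, its fermentative counterpart, had 1175 and 1253 and a log2 ratio of -0.57. ATO2 and ATO3, putative ammonium exporters of one family, moved apart: ATO2 had 181 and 8 reads (16.3-fold, 8.08 to 38.3), and ATO3 had 200 and 726 (5.05-fold lower, 4.31 to 5.93).

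Genes for carbon sources that were not supplied rose too. In the group of gluconeogenesis, the glyoxylate cycle and use of small acids, 7 of 10 measured genes rose and 1 fell, with a median log2 ratio of 2.22. CYB2, the lactate dehydrogenase linked to cytochrome c, had 66 reads in galactose and none in glucose, 15.8-fold higher against 3 reads. JEN1, the lactate permease, had 26 and none, 6.23-fold higher against 3 reads. GUT2, mitochondrial glycerol 3-phosphate dehydrogenase, had 102 and 3 reads, a ratio of 24.5 (8.13 to 121). CIT2, the peroxisomal citrate synthase, fell, with 25 and 48 reads (2.67-fold lower, 1.61 to 4.52). FBP1 and PCK1, the key enzymes of gluconeogenesis, stayed under 20 reads. Invertase SUC2 had 93 and 11 reads (6.08-fold, 3.25 to 12.6), and MAL33, a maltose activator, had 111 and 7 (11.4-fold, 5.35 to 29.0).

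Reserve carbohydrates followed. Of 11 measured trehalose and glycogen genes, 8 rose and none fell, with a median log2 ratio of 1.56. GPH1, glycogen phosphorylase, had 51 reads in galactose and 3 in glucose (12.2-fold, 3.95 to 61.2), and GLC3, the branching enzyme, had 53 and 4 (9.53-fold, 3.51 to 36.3). TPS1, trehalose phosphate synthase, had 96 and 56 reads, a log2 ratio of 0.30. RGI1, a protein of respiratory growth, had 10104 and 544 reads and a log2 ratio of 3.74. In fatty acid oxidation and peroxisomes, 4 of 14 measured genes rose and none fell, with a median of 0.50 and with 7 higher under total scaling. SPS19, a reductase of unsaturated fatty acid oxidation, led them with 118 and 14 reads (6.06-fold, 3.47 to 11.4).

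Genes of the amino acid groups, which hold some breakdown enzymes too, fell more often than they rose under trimmed-mean scaling. Under total scaling they fell as often as they rose, and the pathways differed. Over 100 measured genes of 7 pathway groups 37 fell, 8 rose and 55 did neither, and the median log2 ratio was -0.71. The 8 that rose include the breakdown enzymes CAR2, ARO10, PUT1 and PUT2. Under total scaling the median was -0.24, with 18 lower and 18 higher, so the number that fell depends on the scaling. The arginine group carried it furthest: 9 of 12 measured members fell, 8 of them under total scaling, with a median of -2.58. Beside ARG1, ARG3, ornithine carbamoyltransferase, had 1 read in galactose and 130 in glucose (180.8-fold lower, 31.9 to 7195). ARG4, argininosuccinate lyase, had 98 and 652 (9.25-fold lower, 7.47 to 11.6), and ARG7, ornithine acetyltransferase, had 44 and 278 (8.79-fold lower, 6.38 to 12.4). The one member that rose was CAR2, ornithine transaminase, an enzyme of arginine breakdown, with 1026 and 168 reads (4.39-fold, 3.73 to 5.20). CAR1, arginase, the step before it, had 368 and 159 reads and a log2 ratio of 0.73 that did not reach 2-fold. PUT1, proline oxidase, is counted with the glutamate and proline group below and had 81 and none, 19.4-fold higher against 3 reads.

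In the lysine group 6 of 9 measured genes fell and none rose, with a median log2 ratio of -1.21 and 4 lower under total scaling. LYS20, a homocitrate synthase nearly identical to LYS21, had 1375 reads in galactose and 4458 in glucose (4.51-fold lower, 4.24 to 4.79). LYS9, saccharopine reductase, had 87 and 254 (4.06-fold lower, 3.17 to 5.24), and LYS1, the last enzyme, had 13 and 71 (7.59-fold lower, 4.17 to 15). In the histidine group 4 of 7 fell, with a median of -1.47 and 3 lower under total scaling. HIS3, imidazoleglycerol phosphate dehydratase, had 640 and 2413 reads (5.24-fold lower, 4.80 to 5.73), and HIS4, a multifunctional enzyme, had 37 and 132 (4.96-fold lower, 3.42 to 7.35). HIS2 and HIS6, enzymes of the same pathway, did not reach 2-fold, with 376 and 190 reads in galactose against 277 and 172 in glucose.

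Branched-chain synthesis had 5 of 12 genes lower, none higher and a median log2 ratio of -0.97, but no member fell under total scaling. LEU2, isopropylmalate dehydrogenase, had 574 reads in galactose and 1114 in glucose (2.70-fold lower, 2.44 to 2.99). The aromatic group had 3 of 12 lower and 1 higher, with a median of -0.48 (under total scaling 1 lower and 3 higher). ARO3, which opens the pathway, had 127 and 305 reads (3.34-fold lower, 2.71 to 4.14). ARO10, a decarboxylase of amino acid breakdown, rose, with 72 and 14 (3.70-fold, 2.1 to 7.10). In the group of glutamate, proline, serine, glycine, threonine and asparagine genes, 5 of 24 fell and 2 rose, with a median of -0.53. Under total scaling 1 fell and 3 rose. The 2 that rose under trimmed-mean scaling were PUT1 and PUT2 (504 and 130 reads), both of proline breakdown. ASN1, asparagine synthetase, had 303 and 839 reads (3.85-fold lower, 3.37 to 4.41).

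In sulfur assimilation and methionine synthesis 4 of 24 genes rose and 5 fell, with a median log2 ratio of 0.09. The balance depends on the scaling: under total scaling 9 rose and 1 fell, with a median of 0.56. MET2, homoserine acetyltransferase, had 24 reads in galactose and 2 in glucose, a ratio of 8.63 with limits of 2.14 and 75.3, and MET14, adenylylsulfate kinase, had 583 and 199 (2.11-fold, 1.79 to 2.49). STR2, cystathionine gamma-synthase, fell, with 30 and 62 (2.87-fold lower, 1.83 to 4.60). HOM2 and HOM3, early enzymes shared with threonine synthesis, had log2 ratios of -1.21 and -1.11.

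The Gcn4 letters were found unevenly among these genes. They stood before 28 of the 37 amino acid genes that fell (75.7%) and 28 of the 55 that did neither (50.9%). Of the 8 that rose, which include the breakdown enzymes CAR2, ARO10, PUT1 and PUT2, 2 had a match. All 12 measured members of the arginine group and 6 of 7 of the histidine group had a match, but 2 of 9 of the lysine group. Over all measured genes the share was 13.0%, among all 242 genes that fell 26.4%, and among all 407 that rose 10.1%. GCN4 itself had 32074 reads in galactose and 23467 in glucose, a log2 ratio of -0.03.

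**Figure D2:**
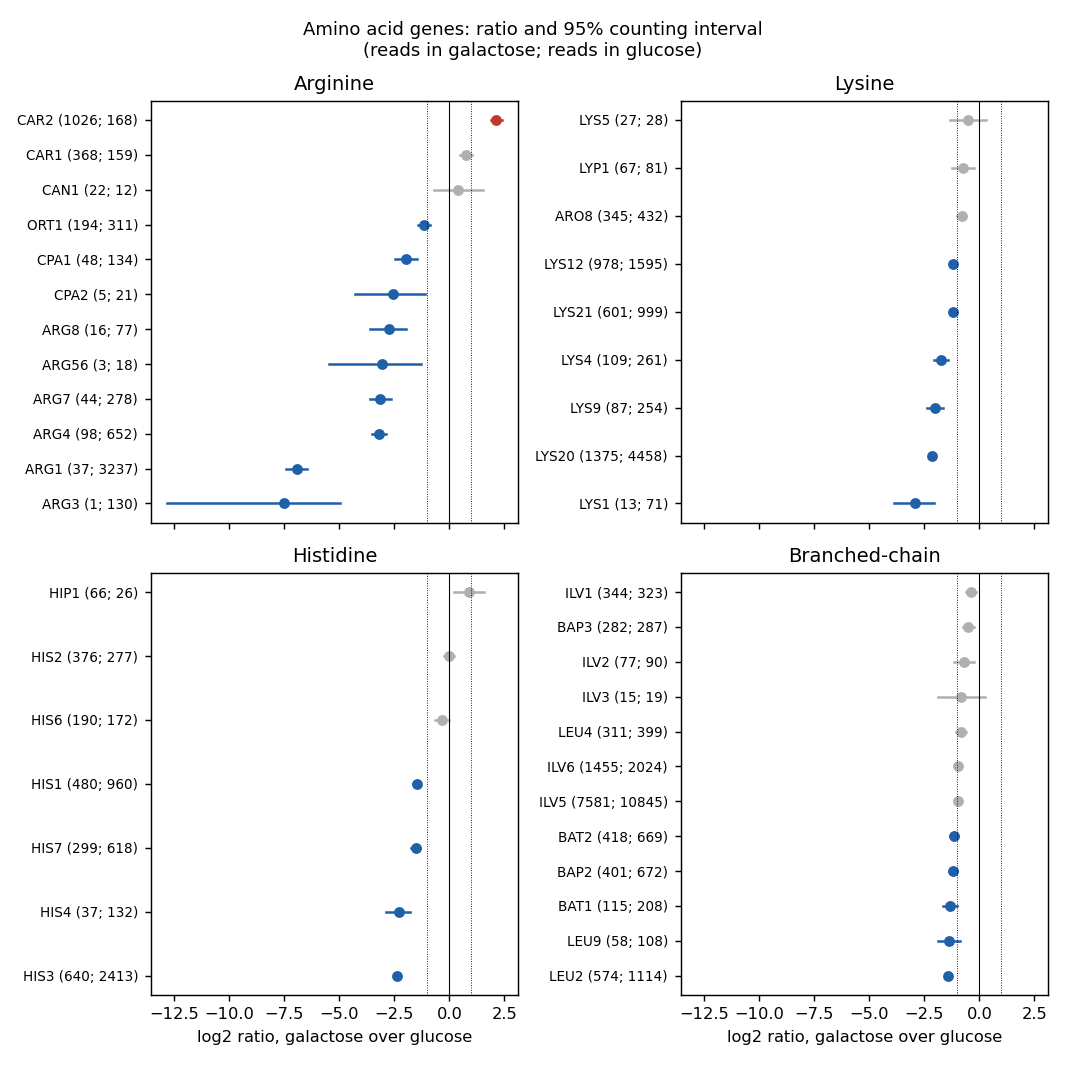
Log2 ratio of reads, galactose over glucose after trimmed-mean scaling and without a pseudocount, for the measured genes of the arginine, lysine, histidine and branched-chain groups; bars are 95% counting intervals and dotted lines mark 2-fold. Red genes rose, blue genes fell, and brackets give reads in galactose, then in glucose. ARG1 and ARG3 lie furthest left, while the branched-chain genes gather near the 2-fold line.

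In nucleotide synthesis, purine genes fell in a larger share than the 6.42% found over all measured genes. Their number depends on the scaling, and 2.36% of all measured genes fell when totals were used. Of 20 measured purine genes 5 fell and none rose, with a median log2 ratio of -0.39 that becomes 0.09 under total scaling, where 1 fell. That gene was IMD2, an inosine monophosphate dehydrogenase, with 2 reads in galactose and 115 in glucose (79.96-fold lower, 21.6 to 668). Its relatives IMD3 and IMD4 had log2 ratios of -0.54 and -1.16. Of 12 pyrimidine genes 1 fell: FUR1, uracil phosphoribosyltransferase, had 987 and 1515 reads (2.14-fold lower, 1.97 to 2.31), and the group median of -0.33 turns to 0.15 under total scaling.

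Protein synthesis genes sat a little under the all-gene value. Of 136 measured cytosolic ribosomal proteins 15 fell and none rose, with a median log2 ratio of -0.59, or -0.11 under total scaling, where 1 fell. They took 35.5% of assigned reads in galactose and 42.8% in glucose. RPS3 had 113583 reads in galactose and 209536 in glucose (2.57-fold lower, 2.55 to 2.58). Reads of 50 of these genes are uncertain because of a near-identical copy; without those the median was -0.58. Ribosome biogenesis factors had 1 of 64 higher and 2 lower, with a median of -0.45 that reverses to 0.03 under total scaling. Of 30 translation factors 2 fell: TEF4, a subunit of elongation factor 1B, had 2698 and 4931 reads (2.54-fold lower, 2.42 to 2.67), and ANB1, the low-oxygen form of eIF5A, had 20 and 112 (7.79-fold lower, 4.81 to 13.2). Cytosolic tRNA synthetases had 2 of 20 lower and none higher, with a median of -0.61.

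Several cell systems did not take part at 2-fold. Of 34 proteasome subunits 1 rose, RPN2 with 24 reads in galactose and 2 in glucose, and the median log2 ratio was 0.11. RPN2 reached the minimum through galactose alone and had to differ. All 11 histone genes stayed within 2-fold, with values between 0.08 for HTZ1 and 0.45 for HHF1 and a median of 0.19. None of 17 vacuolar ATPase genes rose or fell; the median of -0.43 turns to 0.05 under total scaling. The same holds for 10 fatty acid synthesis genes, with a median of -0.35 and 0.13 under total scaling. Of 20 ergosterol genes 2 fell, ERG2 with 349 and 603 reads and MVD1 with 251 and 373, and the median of -0.24 turns to 0.24 under total scaling.

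**Figure D3:**
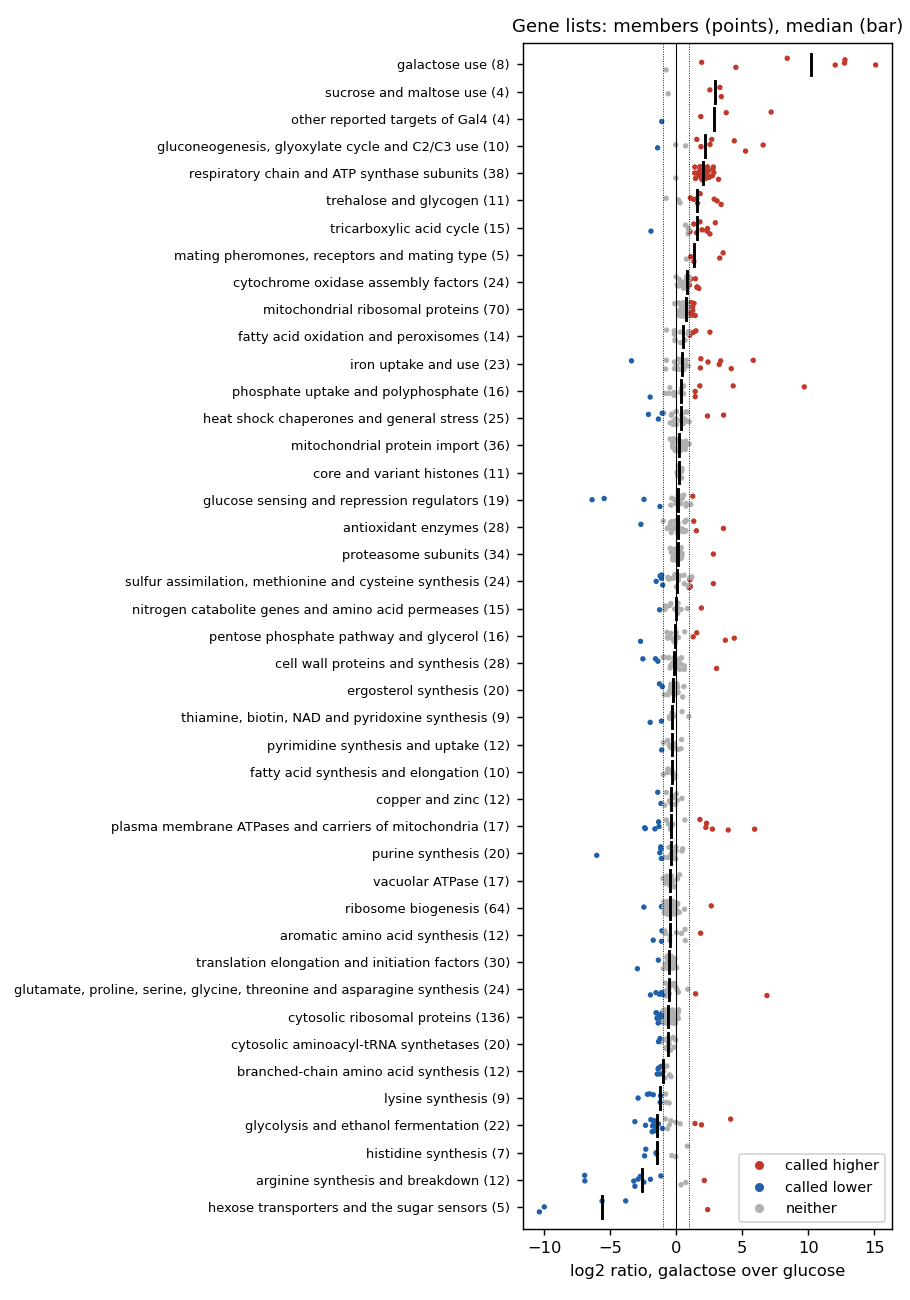
Log2 ratio of galactose over glucose for every measured member (points) of the 43 gene groups, with the group median as a bar and the number measured in brackets; dotted lines mark 2-fold. Red members rose, blue fell and grey did neither. Galactose, sugar and respiratory groups stand at the top, and glycolysis, histidine, arginine and hexose transport at the bottom.

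Iron genes rose in part. Of 23 measured, 7 rose and 1 fell (11 and 1 under total scaling), and the median log2 ratio was 0.43. FIT3 and FIT2, cell wall mannoproteins that retain iron carriers, led them. FIT3 had 5836 reads in galactose and 73 in glucose (57.5-fold, 45.7 to 73.5), and FIT2 had 3296 and 131 (18.1-fold, 15.2 to 21.7). TIS11, which destabilises mRNAs of iron-using proteins, had 113 and 8 reads (10.2-fold, 4.98 to 24.1), and FET3, the oxidase of high-affinity uptake, had log2 ratio 1.87. FET4, the low-affinity transporter, fell, with 12 and 93 reads (10.8-fold lower, 5.89 to 21.6). FTR1, the permease that works with FET3, had 527 and 224 reads and a log2 ratio of 0.76 that did not reach 2-fold.

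The Aft1 motif TGCACCC, searched on both strands, stood before 14 of the 23 iron genes, 4.42% of all genes that rose, 1.24% of those that fell and 2.42% of all measured genes. Matches before FIT2, FIT3 and FET3 are shown with the motif in capitals, GGGTGCA being the opposite strand.
FIT2, chrXV:1059190-1059216, plus strand: ctcaagagcaGGGTGCAatttatcaag
FIT2, chrXV:1059255-1059281, plus strand: tttaaaacaaTGCACCCtaagttcaaa
FIT2, chrXV:1059272-1059298, plus strand: taagttcaaaTGCACCCcccctcgccc
FIT2, chrXV:1059390-1059416, plus strand: gaatctaactGGGTGCAgtataattag
FIT3, chrXV:1061324-1061350, minus strand: gattttttttTGCACCCtgtttgttcc
FIT3, chrXV:1061223-1061249, minus strand: ttctaggaaaGGGTGCAaaaaaatggg
FET3, chrXIII:388561-388587, plus strand: tcttcaaaagTGCACCCatttgcaggt

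Phosphate genes had 5 of 16 measured members higher and 1 lower, with a median log2 ratio of 0.36. PHO89, a sodium-coupled phosphate transporter, had 575 reads in galactose and none in glucose, 137.8-fold higher against 3 reads. GIT1, a glycerophosphoinositol transporter, had 41 and 1 (29.5-fold, 5.0 to 1193). PHO84, the main high-affinity transporter, had 978 and 806 reads and a log2 ratio of -0.20. PHO3, a phosphatase that also serves thiamine uptake, fell, with 302 and 849 (3.91-fold lower, 3.42 to 4.47). Copper and zinc genes had 2 of 12 lower and none higher; their median of -0.36 turns to 0.11 under total scaling.

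Most stress and cell wall genes neither rose nor fell, which is also true of the measured genes as a whole, where 17.2% changed. With total scaling more genes changed in each of these groups, and 26.9% of all measured genes did. Among 25 chaperone and stress genes 2 rose and 3 fell, with a median log2 ratio of 0.35; under total scaling 9 rose and 1 fell, with a median of 0.83. DDR2, a small stress protein, had 259 reads in galactose and 15 in glucose (12.4-fold, 7.39 to 22.5). SSA2, a cytosolic chaperone nearly identical to SSA1, had 3057 and 9399 (4.28-fold lower, 4.10 to 4.46). Of 28 antioxidant genes 3 rose and 1 fell, and under total scaling 8 rose and 1 fell. The one that fell, the peroxiredoxin AHP1, had 4294 and 19620 reads (6.35-fold lower, 6.15 to 6.57), while GPX1, a glutathione peroxidase, had 41 and 2, a ratio of 14.7 (3.83 to 126). Of 28 cell wall genes 1 rose and 3 fell, with a median of -0.18 and 0.30 under total scaling. TIR1, a mannoprotein of anaerobic growth, had 21 and 88 reads (5.83-fold lower, 3.59 to 9.88), and PIR3, a wall protein, had 40 and 3, a ratio of 9.59 (3.05 to 48.5).

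Smaller groups completed the picture. In the pentose phosphate and glycerol group 4 of 16 rose and 1 fell, with a median log2 ratio of -0.05 and 0.43 under total scaling. GPP1, glycerol 3-phosphatase, had 1756 reads in galactose and 8173 in glucose (6.47-fold lower, 6.15 to 6.82). Nitrogen catabolite genes and permeases had 1 of 15 higher and 1 lower, with a median of -0.02 and 0.45 under total scaling. The gene that rose was DAL2, allantoicase, with 23 and 4 reads, and its log2 ratio of 1.91 becomes -0.16 when partial molecules are counted too, down to 50% of the coding sequence. Thiamine and other vitamin genes had 2 of 9 lower, none higher and a median of -0.32, or 0.16 under total scaling.

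The label of a diploid strain was checked with mating genes, which diploids keep repressed. Of 20 such genes 15 were under 20 reads, and the whole group had 134 reads in the 5 measured genes in galactose and 30 in glucose. Among all 6002 genes 3768 reached 20 reads. MFA1 and MF(ALPHA)1, the pheromone precursors, had 24 and 20 reads in galactose and 1 each in glucose, and both rose, with ratios of 17.3 (2.81 to 710) and 14.4 (2.30 to 596). Both reached the minimum through galactose alone and had to differ. RME1, a repressor of meiosis, and GPA1, a subunit of the pheromone-responsive G protein, rose too, with 47 and 28 reads in galactose against 13 and 9 in glucose. In all, 4 of the 5 measured genes rose, against 10.8% of all measured genes. STE2, a pheromone receptor, had 1 read in galactose and none in glucose, but 59 and 34 in the libraries that favour long molecules.

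Other genes at the ends of the range belonged to no group. TMA10, a ribosome-associated protein, had 1292 reads in galactose and 10 in glucose (92.9-fold, 50.4 to 194). YHR033W, a relative of the proline synthesis enzyme PRO1, had 2298 and 4 (413-fold, 161 to 1518). MRK1, a kinase related to glycogen synthase kinase 3, had 179 and none, 42.9-fold higher against 3 reads. ARI1, an aldehyde reductase, had 39 and 1275 reads (45.5-fold lower, 33.1 to 64.2). MAE1, mitochondrial malic enzyme, had 1 and 37 (51.4-fold lower, 8.68 to 2087), and AQR1, a plasma membrane exporter, had 2 and 51 (35.5-fold lower, 9.33 to 301).

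Paralogs kept from the ancient whole-genome duplication were compared pair by pair. Both members were measured for 270 of 502 annotated pairs, and 238 of these pairs were not nearly identical. In 148 neither member changed, in 15 both rose, in 5 both fell, in 59 one changed, and in 11 they changed in opposite directions. Of the 476 genes in these pairs 121 (25.4%) changed, against 17.2% of all measured genes; the pairs were not set against pairs of unrelated genes. The log2 ratios of the members differed by a median of 0.60, and by 2-fold or more in 73 pairs, 58 of them with intervals apart.

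The pairs with opposite changes were mostly isozymes and carriers. Pyruvate kinase PYK2 had 136 reads in galactose and 36 in glucose, and CDC19 had 4351 and 10532. CIT1 and CIT2, PET9 and AAC3, and HXT7 and HXT4 have been given with their groups. The porin POR2 had 52 and 101 reads, beside POR1 with its rise of 2.25 on the log2 scale. PHM8, a nucleotide phosphatase, had 26 and 5 reads, and its paralog SDT1 had 174 and 338. In other pairs one member alone rose. HXK1 had a log2 ratio of 4.12 beside -0.02 for HXK2, and GND2, 6-phosphogluconate dehydrogenase, had 3.72 beside -0.07 for GND1. ODC1, an oxodicarboxylate carrier, had 2.75 beside -0.74 for ODC2. GPP1 fell by 2.69 on the log2 scale, and GPP2 stood at 0.17.

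**Figure D4:**
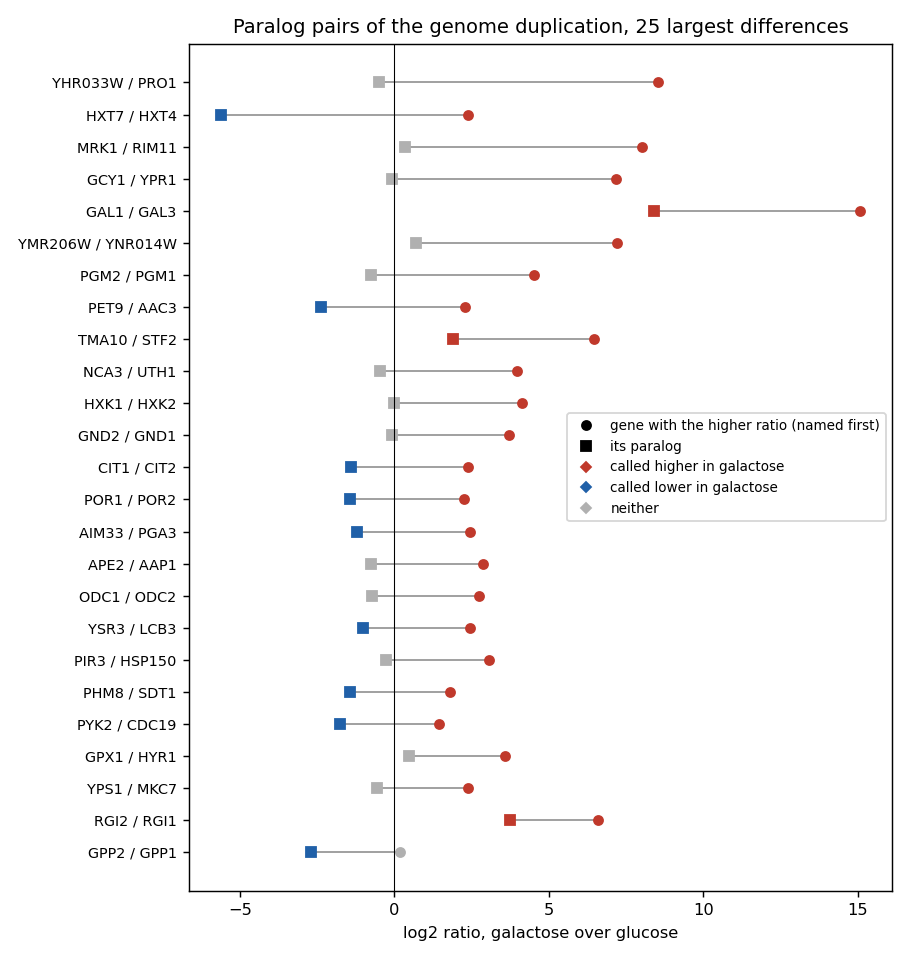
Log2 ratio of galactose over glucose for both members of the 25 paralog pairs that differ most, without nearly identical pairs; circles are the gene named first, squares its paralog. Red genes rose, blue fell and grey did neither. For most pairs the first gene lies far to the right and its paralog lies near 0 or to the left of it.

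Because both ends of each molecule are read, the transcripts themselves can be compared. For 3025 genes with at least 20 reads in each medium, the most used 5' position was the same nucleotide in 2212 (73.1%), and the most used 3' position in 2381 (78.7%). With ends grouped in windows of 11 nt, the leading windows lay within 5 nt of each other for 78.6% of 5' ends and 83.9% of 3' ends. Genes could change strongly and keep their ends. ARG1 began 72 nt before its start codon and ended 134 nt after its stop codon most often in both media, and FIT3 began at 47 nt and ended at 200 nt in both. TDH3 began at 39 nt in 92.5% of its galactose reads and 91.5% of its glucose reads.

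GAL1, GAL10, GAL7 and GAL2 had at most 1 read in the standard glucose column, so only their galactose ends are given. GAL1 began 58 nt before its start codon in 66.7% of reads, GAL10 at 25 nt in 66.5% and GAL7 at 20 nt in 52.1%. The 3' ends of GAL2 were spread: the most used lay 88 nt after the stop codon with 35.7% of reads, but the median was 207 nt. In glucose, HXT3 began at 32 nt in 82.7% of reads.

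The median 5' end moved by 20 nt or more in 141 genes, 70 with a longer leader in galactose and 71 with a shorter one. Among the 222 genes that rose and had reads enough in both media, 25 moved, 4 longer and 21 shorter in galactose. Among 162 that fell, 14 moved and all 14 were longer in galactose. Only molecules that span the whole coding sequence enter, so starts inside it are not seen. At the 3' end 183 genes moved, 47 longer and 136 shorter in galactose.

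Single genes show how large these moves were. GCY1 had a median leader of 45 nt in galactose and 627 nt in glucose. Its Gal4 match stands 369 to 353 bases before the start codon, between those starts. GAL80 had medians of 18 nt in galactose and 78 nt in glucose, and its most used galactose start was the first base of the start codon, with 38.4% of reads. Any GAL80 molecules that began further in were counted neither here nor in its ratio. PYK2 had 24 nt and 91 nt, and BNS1, a gene related to the cell cycle factor SPO12, had 49 nt and 132 nt. The most used start of BNS1 lay at 49 nt in both media. FUM1, fumarase, was among the 4 genes that rose and had longer leaders in galactose, with 161 nt in galactose and 6 nt in glucose. Its most used glucose start lay at 4 nt, with 37.1% of 62 reads. Any FUM1 molecules that began inside the coding sequence were counted neither here nor in its ratio.

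Among the genes that fell, LYS12, homoisocitrate dehydrogenase, had median leaders of 65 nt in galactose and 27 nt in glucose. GGC1, the mitochondrial GTP carrier, had 103 nt and 33 nt. ARO3 had medians of 70 nt and 26 nt, and ADE12, adenylosuccinate synthase, 91 nt and 49 nt, but the most used start was the same in both media, at 21 nt for ARO3 and at 91 nt for ADE12. FUR4, the uracil permease, lies downstream of GAL1 on the same strand of chromosome II. Its most used galactose start lay 1093 nt before its start codon, at position 280350, inside the GAL1 coding sequence, with 22.7% of its 22 reads. In glucose the most used FUR4 start lay at 98 nt, with 23.5% of 34 reads. FUR4 fell 2.15-fold (1.22 to 3.86) among whole molecules, but its log2 ratio was 0.01 with partial molecules counted too, down to 50% of the coding sequence.

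**Figure D5:**
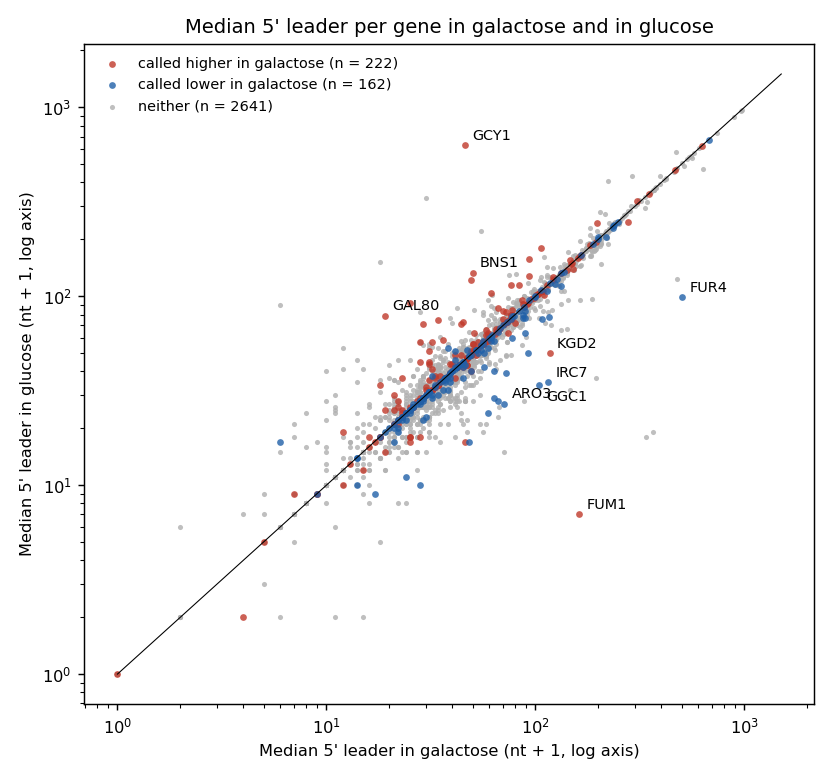
Median 5' leader length per gene in galactose (x axis) and glucose (y axis), in nt plus 1 on log axes, for the 3025 genes with at least 20 reads in each medium; the line marks equal lengths. Red genes rose, blue fell and grey did neither. GCY1 and GAL80 lie above the line, FUM1 and FUR4 below it, and most genes lie on it.

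Libraries made to favour long molecules came from some of the same cultures and give a technical repeat, not an independent one. Of the 407 genes that rose, 372 were measured there, 347 had the same sign, 229 passed the same rule and none passed it in the opposite direction. Of the 242 that fell, 217 were measured, 191 had the same sign, 91 passed and 3 passed in the opposite direction. The share called by the standard columns was 22.1% for genes with 20 to 100 reads, 14.0% for 100 to 1000, 15.2% for 1000 to 10000 and 22.2% for 10000 or more. Nearly identical copies touch 16 of the 649 calls.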

How the data were processed

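TIF-Seq libraries of galactose and glucose cultures were compared. The authors deposited counts: whole reads per combination of 5' and 3' ends, summed over libraries within each column, per the file headers. CASAVA, Novoalign 2.07.10 and build R64 are named in the submitters' processing notes; the handling of duplicates is not given in the sources. No value column was left out (0 unused). The table held 2502656 pairs spanning 40 to 5000 nt.

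Reads were assigned with the rule given above (minimum 20 reads), and scaled by edgeR 4.0.16 trimmed means, in R 4.3.3. Scipy 1.17.1 (intervals), Biopython 1.88 (sequences), pandas 2.3.3 with numpy 2.4.6 and matplotlib 3.10.9 ran under Python 3.11.15. Intervals are exact Poisson ratio intervals, log2 ratios add 0.5 reads, and folds against 0 are computed against a floor of 3 reads. Nearly identical means at least 90% identity over 80% of the coding sequence (blastn 2.17.0). The planned edgeR test across replicates could not be run on pooled columns. Named by rule were the 4 markers, the 15 highest and lowest genes, up to 4 called members per list (or the 2 deepest), and the 5 deepest genes; others were chosen after their values were seen. Members and lists were chosen with earlier results of these data known. Upstream windows of 500 bases were read from the R64 genome. Tested on simulated data with 3768 genes, the rule recovered 194 of 200 genes changed 4-fold (97%) and called 22 unchanged ones. The simulated counts held counting error only, as the intervals assume. Spread between cultures and PCR copies were left out, so the error rate in the real columns is not known from it. Alternatives were total scaling, DESeq2 1.42.0 size factors, other minima, looser overlap, pairs counted once, pairs with at least 2 reads, a 3-fold threshold and a pseudocount of 1. One gene-level result is not reported here.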

Additional observations from a re-analysis of the deposited data

Results flagged for a closer look

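Libraries that favour long molecules, which the comparison does not use, held more than 3 glucose reads for 273 of the 1302 genes with none in the standard glucose column. Among the 16 measured genes of this kind, 3 did so: GAL1 had 77 reads, PHO89 51 and GAL10 16. GAL4, which was under the minimum, had 8. The same libraries in galactose held 147402 reads of GAL1, 6516 of PHO89, 26062 of GAL10 and 36 of GAL4. The source of the glucose reads was not tested.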

How the results depend on the processing

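Scaling by total reads gave 926 genes higher and 89 lower in galactose, a minimum of 100 reads 267 and 123, pairs of ends counted once 218 and 71, and a 3-fold threshold 230 and 77, against 407 and 242 as reported. All 89 genes lower under total scaling were among the 242, and 201 of the 218 and 68 of the 71 with pairs counted once were among those reported. DESeq2 size factors (400 and 247), no minimum (477 and 286), molecules overlapping at least 50% of a coding sequence (428 and 257) and pairs with 2 or more reads (417 and 238) stayed within 1.5 times. Of the genes named by rule, 40 lost their call under total scaling and 57 with pairs counted once. Medians changed sign under total scaling for purine (0.091), pyrimidine (0.15), ergosterol (0.24), fatty acid (0.13), copper and zinc (0.11), ribosome biogenesis (0.027), vacuolar ATPase (0.047), cell wall (0.30), vitamin (0.16), nitrogen (0.45), pentose phosphate and glycerol (0.43) and carrier genes (0.092). The nitrogen median was 0.022 with no minimum and 0.035 with a minimum of 100 reads. With pairs counted once the sulfur median was -0.14, the proteasome median -0.018 and the histone median -0.054; with pairs of 2 or more reads the sulfur median was -0.063. At 50% overlap DAL2 had -0.16 and FUR4 0.012. The cause of these changes was not tested. No paired analysis was possible because the libraries are summed in each column; for the same reason the planned leave-one-out and replicate block were not run. Few long genes reached 20 reads in the standard columns; the cause was not tested.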

Other observations

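Genes known from growth at low oxygen moved in both directions. ANB1, AAC3 and TIR1 had 20, 60 and 21 reads in galactose and 112, 226 and 88 in glucose, with log2 ratios of -2.93, -2.38 and -2.52, while CYC7 had 144 and 15 (2.75) and COX5B had 92 and 67 (-0.02). TIR3, a relative of TIR1, had 262 and 374 reads and a log2 ratio of -0.99. These genes were put together after their values were seen, and oxygen was not measured.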
